A study of Mus musculus with 15 samples.

Results

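This account describes 9 genes of the fetal growth programme in macrophages of the dura mater, the outer membrane around the brain. They were listed by name, with earlier results of these data known. The list holds the RNA-binding proteins Igf2bp1, Igf2bp2, Igf2bp3 and Lin28b, the chromatin protein Hmga2, and the imprinted genes H19, Igf2, Dlk1 and Peg3. All 9 stand in the deposited table, which counts reads on 53546 genes, and 8 of them passed the filter on low counts that left 14683 genes for testing. Hmga2 did not pass and has counts only. The libraries came from CD206+ dural macrophages of C57BL/6J mice of genotype Cx3cr1GFP/wt, which carry 1 green fluorescent reporter allele at the fractalkine receptor locus, as embryos at E14.5 and after birth on days 3, 10, 21 and 56 (P3, P10, P21, P56). Each age had 3 libraries, from individual untreated mice per the series text, and the reporter allele was shared by all of them. The Cx3cr1 reporter replaces 1 working copy of that gene, and no mice without it were compared.

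The IGF2BP proteins bind mRNAs and prolong their life, and LIN28B blocks the maturation of the let-7 microRNAs. Mature let-7 in turn represses mRNAs whose 3′ untranslated regions carry its seed match, among them Lin28b, Hmga2 and Igf2bp1 themselves, and this loop is a textbook switch between fetal and adult states. Imprinted genes are read from the copy of a single parent: Igf2, Dlk1 and Peg3 from the paternal copy and the long non-coding RNA H19 from the maternal copy. Many of them are high in growing embryonic tissue, above all in mesenchyme, and are turned down after birth. The counts do not separate the parental copies.

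Total counts were 17550170 to 30614583 per library, and 11254 to 13654 genes reached 10 counts, the fewest in P21 replicate 2. The macrophage label was checked on 15 marker genes, all detected in every library, with summed levels of 29256 to 47960 CPM, here each library's counts rescaled to a common total. Markers of other cells were also present: 14 fibroblast and mesenchyme markers summed to 79.2 to 2845 CPM and 8 mast cell markers to 2.11 to 1753 CPM. The P56 libraries all belonged to a different sequencing project from the other 12, so age and project cannot be told apart in any comparison with P56. In bulk libraries fewer cells that make an RNA and less RNA per cell cannot be told apart.

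The let-7 microRNAs are shown because their seed links 6 of the 8 protein-coding members. Mature sequences are from RefSeq on GRCm38.p6, written 5′ to 3′ with the seed, bases 2 to 8, in capitals.
let-7a: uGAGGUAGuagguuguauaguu
let-7d: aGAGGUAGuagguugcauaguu
let-7g: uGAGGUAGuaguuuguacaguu
miR-98: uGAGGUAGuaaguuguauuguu
All these share the seed GAGGUAG. H19 hosts a microRNA of its own with a different seed, miR-675-5p.
miR-675-5p: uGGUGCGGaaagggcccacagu

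The DNA letters that pair with the let-7 seed are CTACCTC, searched on the transcribed strand in the longest annotated 3′ untranslated region of each gene (GENCODE M21, GRCm38). Of 21020 genes with such a region, 1897 (9.02%) held the motif at least once, 226 (1.08%) at least 2 times and 12 (0.0571%) at least 4 times. Igf2bp1, Lin28b and Hmga2 are 3 of those 12, with 4 matches each in regions of 6337, 4445 and 3014 bases. Igf2bp2, Igf2bp3 and Peg3 had 1 match each, in 1784, 2119 and 3614 bases. Igf2 and Dlk1 had none in 3050 and 2976 bases, and H19 has no coding region. Longer regions hold more matches by their length alone, and a match describes these letters only.

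The first match of each gene after the stop codon is printed with the seed match in capitals and 14 bases before it. All 6 lie on the minus strand, in the last part of the mRNA.
Igf2bp1, chr11:95961778-95961799: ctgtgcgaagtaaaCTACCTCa
Lin28b, chr10:45381022-45381043: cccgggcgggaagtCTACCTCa
Hmga2, chr10:120364224-120364245: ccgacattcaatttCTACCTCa
Igf2bp3, chr6:49086787-49086808: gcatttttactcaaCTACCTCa
Igf2bp2, chr16:22059473-22059494: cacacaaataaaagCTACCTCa
Peg3, chr7:6706883-6706904: gagtgttctgtcccCTACCTCt
In 5 of the 6 the base after the match is an a, which lies opposite the first base of the microRNA. In Peg3 it is a t. Among the later matches, not printed, the next base is an a or a t in Igf2bp1 and a t or a c in Lin28b and Hmga2. How often an a follows this motif in other genes was not counted.

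**Figure D1:**
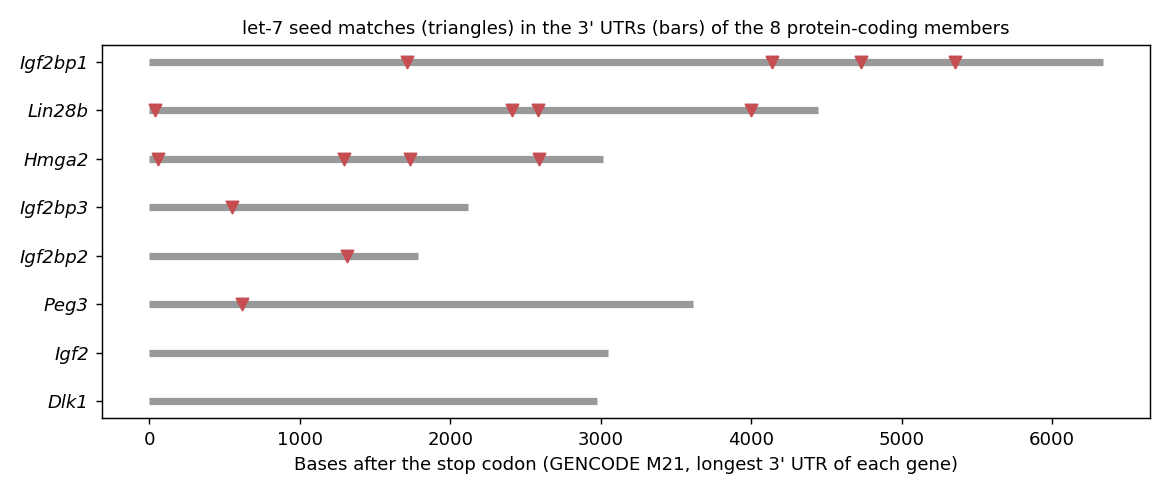
Position of each let-7 seed match (triangles) along the longest annotated 3′ untranslated region (grey bars) of the 8 protein-coding members, in bases after the stop codon. Igf2bp1, Lin28b and Hmga2 carry 4 matches each, spread over the region, Igf2bp3, Igf2bp2 and Peg3 carry 1, and Igf2 and Dlk1 carry none.

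The 4 RNA-binding genes had their highest mean levels in the embryo, and 3 of them, Igf2bp1, Igf2bp3 and Lin28b, fell by P10 or P21. Igf2bp1 was 173-fold lower at P10 and 198-fold lower at P21 than at E14.5, and Igf2bp3 was 5.79-fold lower at P21. Lin28b was listed in every E14.5 library and had no read in any P10 library. Levels below are CPM scaled by trimmed mean of M values (TMM), and a difference is called when the adjusted p of edgeR's quasi-likelihood test, over all genes tested, is below 0.05.

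Igf2bp1 (chr11:95957163-96005940, minus strand) encodes an oncofetal RNA-binding protein that in most tissues is silent after birth. Its levels were 30.7, 36.7 and 55.0 CPM at E14.5, 3.01, 4.03 and 3.26 CPM at P3, 0.154, 0 and 0.560 CPM at P10, 0.244, 0.313 and 0.0482 CPM at P21, and 0, 0.110 and 0 CPM at P56. The E14.5, P3 and P10 libraries did not overlap, and the levels from P10 to P56 did. Behind these levels lie 3292 counts over the 3 E14.5 libraries and 256 over those of P3. From P10 on the sums were 16, 12 and 2. The log2 change was -7.43 ± 1.14 (SE) at P10 against E14.5 (adjusted p = 0.00115) and -7.63 ± 1.16 at P21 against E14.5 (adjusted p = 0.000583). Both were called in all 17 alternative settings, with adjusted p of 1.49e-19 to 0.00946 at P10 and 2.01e-19 to 0.00512 at P21. The step from E14.5 to P3, a log2 change of -3.57 ± 0.93, was not called (adjusted p = 0.0721), although 6 of 17 settings called it, with adjusted p of 2.85e-05 to 0.464 over them.

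Igf2bp3 (chr6:49085223-49214957, minus strand) had the highest mean level per kilobase of exon of the 4 RNA-binding members at each age. Its levels were 122, 132 and 141 CPM at E14.5, 89.3, 106 and 88.2 CPM at P3, 52.9, 53.4 and 53.1 CPM at P10, 30.1, 14.8 and 23.4 CPM at P21, and 0.115, 4.28 and 2.56 CPM at P56. No library of an age overlapped with those of the next age, so the order of the 5 ages held in every library. The log2 change was -2.53 ± 0.56 at P21 against E14.5 (adjusted p = 0.00818) and -3.29 ± 0.60 at P56 against P21 (adjusted p = 0.0365). At P21 against E14.5 the call held in 15 of 17 settings (adjusted p = 2.11e-05 to 0.0738) and in each fit without 1 library, and was lost with no filter on low counts (0.0518) and with a test for a change beyond a log2 of 1 (0.0738). At P56 against P21 it held in 9 of 15 (adjusted p = 5.69e-07 to 0.607) and was lost without P21 replicate 1 (adjusted p = 0.0825) or without P56 replicate 3 (adjusted p = 0.0900). The smaller steps from E14.5 to P3 (log2 change -0.48, adjusted p = 0.822), from P3 to P10 (-0.83, adjusted p = 0.669) and from P10 to P21 (-1.22, adjusted p = 0.313) were not called. The change at P10 against E14.5, -1.31 ± 0.53, was not called either (adjusted p = 0.156). With the P56 libraries left out of the fit it was (adjusted p = 0.00310), and its adjusted p ran from 7.73e-04 to 1 over 17 settings.

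The reads of Igf2bp3 may include some of Malsu1, a gene for a mitochondrial ribosome assembly factor on the other strand that shares 18.74% of its exon bases, since the library kit does not mark strand. Malsu1 was not called in any of the 6 comparisons, with log2 changes between -0.33 at P21 against P10 and 0.54 at P10 against E14.5.

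Igf2bp2 (chr16:22059009-22163299, minus strand) is the member of the family that adult tissues also use. Its levels were 6.64, 17.4 and 9.18 CPM at E14.5, 2.11, 1.24 and 1.63 CPM at P3, 5.38, 2.87 and 3.71 CPM at P10, 4.69, 0.365 and 0.337 CPM at P21, and 1.15, 0.603 and 0.333 CPM at P56. The E14.5 libraries stood above all others, while P10 and P21 overlapped, as did P21 and P3. The largest decrease in the 6 comparisons, a log2 change of -2.73 ± 1.002 at P3 against E14.5, was not called (adjusted p = 0.232). At P21 against E14.5 the log2 change of -2.62 was not called (adjusted p = 0.109), and without P21 replicate 1, the high one, it was -4.96 (adjusted p = 0.00616, range 0.00616 to 0.414 over 17 settings).

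Lin28b (chr10:45376620-45486395, minus strand), the blocker of let-7 maturation, had 3.56, 8.06 and 9.64 CPM at E14.5 and 5.69, 1.60 and 0 CPM at P3. It had 0 reads in every P10 and P56 library and 2 reads in each P21 library, which is 0.0978, 0.104 and 0.0963 CPM. Of the P3 libraries, replicate 1 lay within the range of the E14.5 libraries and the other two below it. Against 579 counts over the E14.5 libraries, the 0 counts at P10 make Lin28b at least 182-fold lower, with 3 counts over the 3 P10 libraries as the limit that a count of 0 allows (counting error only). That fall was called (fitted log2 change -10.35 ± 2.34, a value that depends on the prior count, adjusted p = 0.0239). It held in 11 of 17 settings (adjusted p = 2.17e-05 to 0.106) and ended when E14.5 replicate 2 (adjusted p = 0.0640), E14.5 replicate 3 (0.0647) or P10 replicate 1, 2 or 3 (0.0713, 0.0757 and 0.0601) was left out. At P21 against E14.5 the log2 change of -6.08 was not called (adjusted p = 0.0654).

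Hmga2 (chr10:120361275-120476469, minus strand), which bends DNA and is the classic let-7 target, was close to the limit of detection. It had 16, 2 and 5 counts in the E14.5 libraries and 27, 1 and 0 counts in the P3 libraries. The P10 libraries had 0, 0 and 1, the P21 libraries 1, 0 and 1, and the P56 libraries 0, 1 and 0. P3 replicate 1 held nearly all the P3 counts and was also the highest P3 library for Lin28b. With no filter on low counts the P10 change against E14.5 was -3.89 on the log2 scale and was not called (adjusted p = 0.438). The gene 1700006J14Rik on the other strand shares 2.067% of the exon bases of Hmga2. It averaged 13.8, 10.4, 4.52, 3.17 and 2.41 CPM from E14.5 to P56. Its part in the counts of Hmga2 was not tested.

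**Figure D2:**
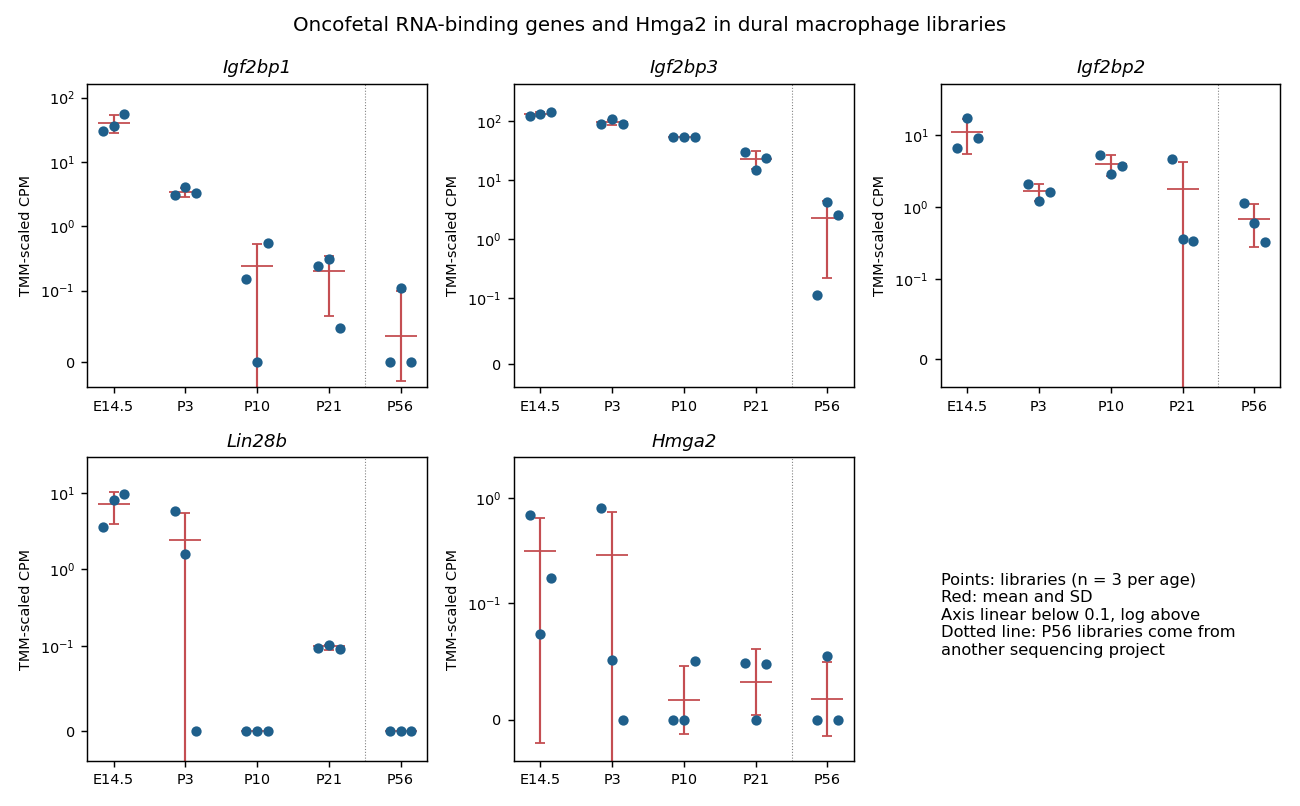
TMM-scaled CPM of Igf2bp1, Igf2bp3, Igf2bp2, Lin28b and Hmga2 in each of the 15 libraries (points, 3 per age), with mean and SD in red; the axis is linear below 0.1 and logarithmic above. Igf2bp1 and Igf2bp3 step down with age without overlap from E14.5 to P10, and Lin28b is at 0 in every P10 and P56 library.

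The imprinted members had another course. All 4 had a higher mean at P3 than at E14.5, with no overlap. Of all genes tested, 26.4% did not overlap between P3 and E14.5, in either direction. All 4 also had a lower mean at P56 than at P21, where age and sequencing project cannot be told apart. H19 was 3.11-fold higher at P3 than at E14.5, the only call among them at that step. The summed fibroblast and mesenchyme markers, given below, also had a higher mean at P3 and a lower one at P56, and their part in these values was not tested.

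H19 (chr7:142575529-142578143, minus strand), a long non-coding RNA abundant in fetal mesoderm, had 49.8, 20.9 and 30.9 CPM at E14.5 and 59.1, 103 and 154 CPM at P3. It had 107, 69.7 and 58.0 CPM at P10, 60.1, 76.4 and 48.7 CPM at P21, and 15.4, 21.1 and 26.7 CPM at P56. The P3 libraries all lay above the E14.5 ones and overlapped with those of P10, while the P56 libraries lay below those of P21. The log2 change at P3 against E14.5 was 1.64 ± 0.39 (adjusted p = 0.0456). The call held in 9 of 17 settings (adjusted p = 0.00119 to 0.966) and ended when E14.5 replicate 2 (adjusted p = 0.204), E14.5 replicate 3 (0.165), P3 replicate 2 (0.110) or P3 replicate 3 (0.214) was left out. The changes at P10 against E14.5 (1.21, adjusted p = 0.0664) and at P56 against P21 (-1.55, adjusted p = 0.131) were not called. Of the alternative settings, 7 of 17 called the former and 2 of 15 the latter.

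Igf2 (chr7:142650766-142666816, minus strand), the fetal insulin-like growth factor next to H19, was low throughout. It had 0.0868, 0.293 and 1.11 CPM at E14.5, 2.14, 2.89 and 2.80 CPM at P3, 3.503, 2.02 and 2.39 CPM at P10, 1.22, 2.14 and 1.59 CPM at P21, and 0.115, 0.603 and 0.389 CPM at P56. The libraries of P3, P10 and P21 all stood above those of E14.5 and P56. The log2 change at P3 against E14.5, 2.37 ± 1.06, was not called (adjusted p = 0.360). In the annotation 64.547% of its exon bases also belong to Gm49394 or to the antisense gene Igf2os, and how reads there were assigned is not given in the sources used here.

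Dlk1 (chr12:109452823-109463336, plus strand), a membrane protein related to the Notch ligands, had 1.08, 1.58 and 1.60 CPM at E14.5, 6.59, 2.69 and 11.7 CPM at P3, and 1.23, 2.78 and 5.44 CPM at P10. At P21 it had 0, 0 and 0.530 CPM, and at P56 no read. The P3 libraries spanned the widest range, and all P21 libraries were below those of E14.5 and P10. Neither the higher level at P3 against E14.5 (log2 change 2.29 ± 1.38, adjusted p = 0.552) nor the lower level at P21 against P10 (-4.11 ± 1.52, adjusted p = 0.245) was called. Without P21 replicate 3, the only P21 library with reads of Dlk1, the lower level at P21 against P10 was called (adjusted p = 0.0463, range 0.0312 to 1 over 17 settings). The change at P56 against P21 was not called (adjusted p = 0.357).

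Peg3 (chr7:6703892-6730431, minus strand), a zinc finger protein, had 6.86, 5.94 and 8.04 CPM at E14.5, 21.02, 23.0 and 33.8 CPM at P3, and 23.4, 6.51 and 12.4 CPM at P10. It had 1.81, 20.97 and 9.73 CPM at P21 and 0, 1.37 and 0.0556 CPM at P56. The spread at P21 was wide, with replicate 2 the highest, and all P56 libraries were below all others. The log2 change was 1.90 ± 1.02 at P3 against E14.5 (adjusted p = 0.481) and -4.49 ± 1.17 at P56 against P21 (adjusted p = 0.138), neither called.

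The fibroblast and mesenchyme markers, 14 genes such as Col1a1, Dcn and Pdgfra, summed to 89.0, 79.2 and 756 CPM at E14.5, 572, 1868 and 2572 CPM at P3, and 2639, 713 and 2845 CPM at P10. They summed to 1932, 1793 and 1131 CPM at P21 and to 143, 148 and 191 CPM at P56. At least 12 of the 14 were detected in every library. Not every marker followed the sum. In TMM-scaled CPM, Col1a1 averaged 96.2 at E14.5 and 481 at P3, and Dcn 5.88 and 44.5. Pdgfra went the other way, at 3.28 and 0.144. At P3 and P56 the order of the libraries was the same for the summed markers and for H19, and at E14.5, P10 and P21 it was not. At P10 the markers were highest in replicate 3, where H19 was lowest, and at P21 they were highest in replicate 1, while H19 was highest in replicate 2. At E14.5 replicate 3 was highest for the markers and for Igf2, while H19 was highest in replicate 1. Mast cell markers were highest at P3, at 635 to 1753 CPM, against 2.11 to 121 CPM at E14.5. Erythroid markers summed to 67.7 to 97.4 CPM at P56, against 199 to 452 CPM at E14.5.

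**Figure D3:**
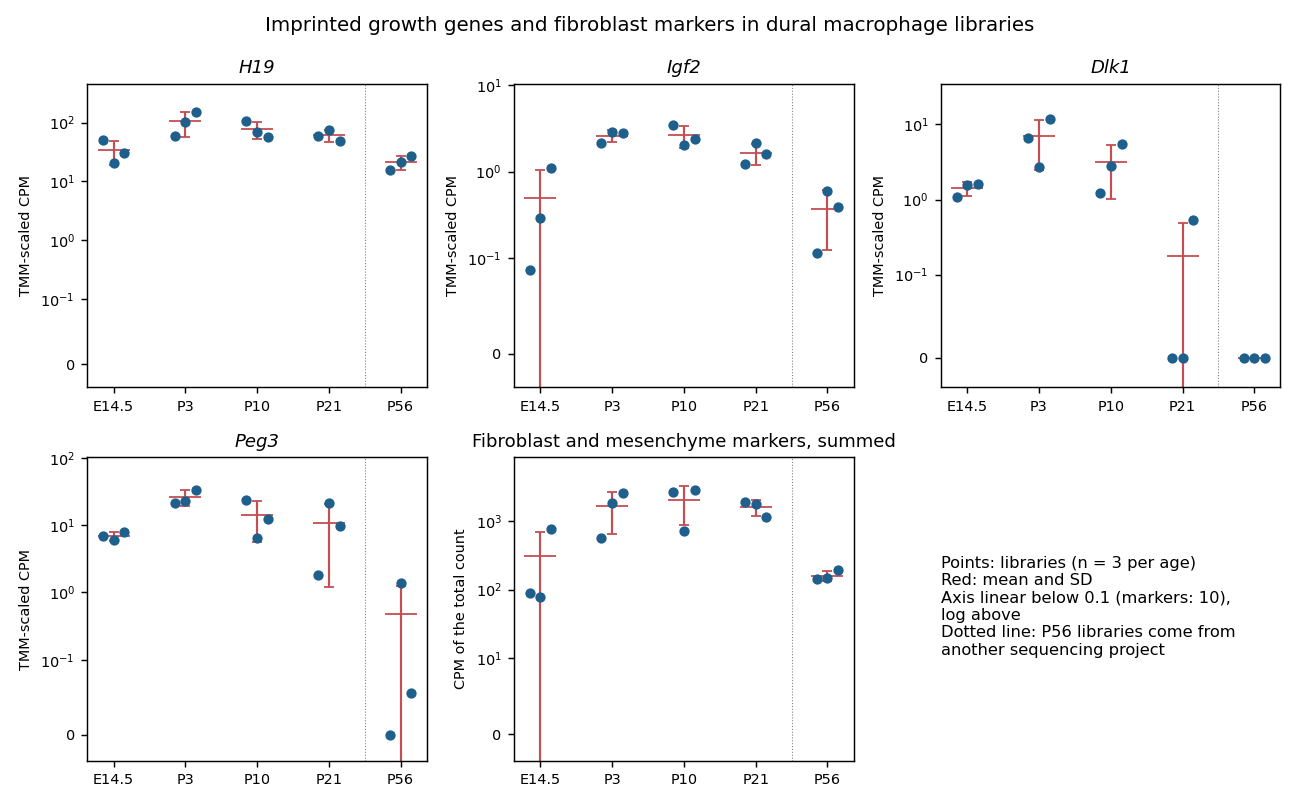
TMM-scaled CPM of H19, Igf2, Dlk1 and Peg3, and the summed CPM of 14 fibroblast and mesenchyme markers, in each of the 15 libraries (points, 3 per age), with mean and SD in red; the axes are linear near 0 and logarithmic above. All 4 genes and the markers have a higher mean at P3 than at E14.5 and a lower mean at P56 than at P21.

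Per length, H19 and Igf2bp3 stood apart from the other members. At E14.5 the level in CPM per kilobase of exon was 16.1 ± 1.198 for Igf2bp3, 13.8 ± 5.96 for H19 and 4.22 ± 1.31 for Igf2bp1 (SD, n = 3). At P3 it was 42.8 ± 19.3 for H19 and 11.6 ± 1.24 for Igf2bp3, while the other 7 were between 0.0426 for Hmga2 and 1.95 for Peg3. At P56 H19 stood at 8.57 ± 2.29 and the other 8 at 0.284 or less.

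Counted over the 8 tested members, the calls were few in steps between neighbouring ages. Because the members were chosen with earlier results of these data known, the shares of all genes beside their counts are a description only. At P3 against E14.5, 1 of 8 was called, where 2.06% of all genes were, and 7 of 8 had libraries that did not overlap, where 26.4% of all genes did. At P10 against P3 none was called with edgeR (0.402% of all genes; 2 members at an unadjusted p below 0.05 and 2 by DESeq2), and 3 of 8 did not overlap (19.2% of all genes). At P21 against P10 none was called with edgeR (1.14% of all genes; 2 members at an unadjusted p below 0.05 and 1, Dlk1, by DESeq2), and 3 did not overlap (17.7% of all genes). At P56 against P21, Igf2bp3 alone was called, lower at P56 (0.272% of all genes called, 0.17% lower), and 5 did not overlap (13% of all genes).

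Over the longer spans, which use the same E14.5 libraries, 2 of 8 were called at P10, Igf2bp1 and Lin28b, both lower, where 8.96% of all genes were called and 3.15% were lower. At P21 Igf2bp1 and Igf2bp3 were called, both lower, where 12.2% of all genes were called and 4.37% were lower. At either age 6 of 8 did not overlap with E14.5, against 35.4% of all genes at P10 and 33.4% at P21. The median log2 change of the 8 was -0.14 at P10 and -2.58 at P21 against E14.5, and that of all genes 0.02 and -0.01. In a test for any difference among E14.5, P3, P10 and P21, 3 members passed, where 12.3% of all genes did: Igf2bp1 (adjusted p = 0.000266), Igf2bp3 (0.000104) and Lin28b (0.0279). H19 (0.0640), Dlk1 (0.123), Igf2bp2 (0.158), Peg3 (0.262) and Igf2 (0.367) did not. Igf2bp1 and Igf2bp3 passed in all 20 alternative settings of that test. Lin28b passed in 11 of the 20. It did not pass, at an adjusted p of 0.0504 to 0.0836, when E14.5 replicate 1, 2 or 3, P3 replicate 2, P10 replicate 1 or 2, or P21 replicate 1 or 3 was left out.

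**Figure D4:**
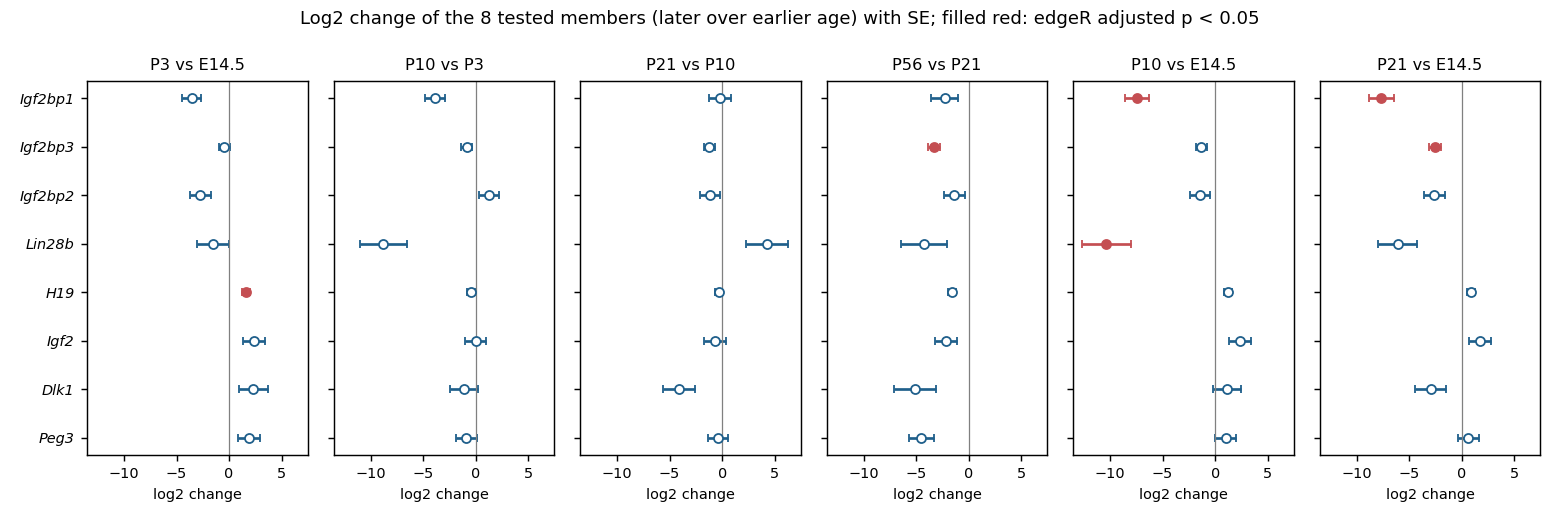
Log2 change (x axis, later over earlier age, with SE) of the 8 tested members in 6 comparisons of ages; filled red points have an edgeR adjusted p below 0.05. The points left of 0 at P10 and P21 against E14.5 are led by Igf2bp1 and Lin28b, and H19 at P3 against E14.5 is the single filled point right of 0.

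Genes around the members were read from pathway lists and counted against E14.5. Among all genes, 1.67% were called higher and 0.388% lower at P3, 5.81% higher and 3.15% lower at P10, and 7.81% higher and 4.37% lower at P21. Of the LIN28 and let-7 pathway, 14 genes were in the table and 12 tested, and the single call was Lin28b at P10. The rows of the let-7 and miR-675 precursors held 4 counts in all 15 libraries together, which says nothing of the mature microRNAs, since the libraries were not made to capture RNAs of that length. Trim71, a partner of the let-7 loop, averaged 0.0405 CPM at E14.5, from 3 counts. It had 2 counts at P3 and no read from P10 on, too few to compare ages. Lin28a, the second LIN28 gene, averaged 0.440 ± 0.762 CPM at E14.5.

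Of the textbook let-7 targets outside the members, 16 were tested. At P21, 4 were lower and 1 higher, at P10, 2 lower and 1 higher, and at P3, 1 higher. Arid3a, a transcription factor with 2 seed matches, fell to 32.3 ± 13.1 CPM at P21, against 100.1 ± 5.49 CPM at E14.5 (log2 change -1.63, adjusted p = 0.00206). Hmga1, the relative of Hmga2, fell to 14.9 ± 4.54 CPM at P21, against 38.5 ± 0.828 CPM at E14.5 (adjusted p = 0.00322). The phosphatase gene Cdc25a (-2.14, adjusted p = 0.0139) and Myc (-1.47, adjusted p = 0.0197) were also lower at P21, and Plagl2 at P10 (-0.996, adjusted p = 0.0448). Ccnd2, for cyclin D2, went the other way, with 53.3 ± 15.02 CPM at P21 against 10.7 ± 1.15 CPM at E14.5 (2.32, adjusted p = 0.000316). Its annotated 3′ region, like that of Myc, held no seed match. The list's median log2 change was -0.53 at P10 and -0.27 at P21, against 0.02 and -0.01 for all genes.

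All tested genes with an annotated 3′ region were also grouped by their number of seed matches. At P10 against E14.5, 1 of 145 genes with 2 or 3 matches was called higher and 9 lower, which is 0.69% and 6.21%. Of 1140 genes with 1 match 3.33% were higher and 3.51% lower, and of 11170 genes with no match 6.95% were higher and 3.63% lower. At P21 the shares higher and lower were 2.07% and 6.21% with 2 or 3 matches (3 and 9 genes), 6.05% and 5.44% with 1 match, and 9.01% and 4.92% with none. At P3 no gene with 2 or 3 matches was called, and among genes with 1 match and with none 1.58% and 1.96% were higher and 0.263% and 0.466% lower. The median 3′ region had 3635 bases in genes with 2 or 3 matches, 2177 in those with 1 and 1046 in those with none, and the part of that length was not tested. The differences between these groups of genes were not tested either. Of the 12 genes with 4 or more matches, 9 were tested. Igf2bp1 was called lower at P10 and at P21, and Lin28b at P10 only. Trim6 was called lower at P21 (adjusted p = 0.0277) and not at P10 (adjusted p = 0.0934). Its counts were already low before P21, with 1 over the P3 libraries and 4 over those of P10. It had 0 reads at P21 against 211 counts, or 2.67 ± 0.996 CPM, at E14.5. The 0 reads at P21 make Trim6 at least 53.7-fold lower on the limit of 3 counts over the P21 libraries. Also among the 9, Ptafr, the receptor for platelet-activating factor, was higher (0.85 at P10, adjusted p = 0.0194, and 0.81 at P21, adjusted p = 0.0173).

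In the insulin-like growth factor axis, 15 genes were tested, and 1, 3 and 5 were higher at P3, P10 and P21, with none lower. Igf1, which macrophages themselves make, stood at 493 ± 70.7 CPM at P21, against 259 ± 12.8 CPM at E14.5 (0.93, adjusted p = 0.00617). The insulin receptor substrate Irs2 was higher at P21 (1.31, adjusted p = 0.0278). The binding proteins Igfbp7 (46.9 ± 30.0 CPM at P21 against 0.0527 ± 0.0295 CPM at E14.5, adjusted p = 0.000255), Igfbp6 (3.90, adjusted p = 0.0120) and Igfbp5 (4.53, adjusted p = 0.0132) were higher too. The fibroblast marker sums of the same libraries were 1131 to 1932 CPM at P21, against 79.2 to 756 CPM at E14.5, and their part was not tested. The receptor for IGF2 that clears it, Igf2r, averaged 1.54 ± 1.55 CPM at P21 and 1.93 ± 1.74 CPM at E14.5.

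Of 51 other imprinted genes, 39 were tested, and 2, 3 and 4 were higher at P3, P10 and P21, with 1 lower at P10. Cdkn1c, a brake on the cell cycle, was higher at P3, at 141 ± 46.4 CPM against 24.5 ± 9.49 CPM at E14.5 (2.53, adjusted p = 0.000413), and higher at P10 (1.502, adjusted p = 0.00475). Asb4, a ubiquitin ligase subunit, was higher at P3, P10 and P21 (adjusted p = 0.0242, 0.00772 and 0.00146), with 3.37 ± 2.24, 4.30 ± 3.46 and 15.5 ± 7.49 CPM, against 0.0267 ± 0.0234 CPM, from 2 counts, at E14.5. Dcn, itself a fibroblast marker, was higher at P10 and P21 (4.41 and 5.54, adjusted p = 0.00656 and 0.00116), and Peg13, a non-coding RNA, at P21 (1.64, adjusted p = 0.0467). The tetraspanin gene Cd81 fell to 164 ± 15.9 CPM at P10, against 291 ± 25.1 CPM at E14.5 (adjusted p = 0.0255). It was higher at P21, at 572 ± 168 CPM, than at P10 (adjusted p = 0.00142), and higher at P56, at 1566 ± 395 CPM, than at P21 (adjusted p = 0.00979).

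Among 10 tested genes of the Delta and Notch family, only Hes1, a target of Notch signalling, was called, higher at P3, P10 and P21 (3.35, 2.89 and 3.49, adjusted p = 0.00904, 0.00709 and 0.00141). Of 22 tested genes for other RNA-binding proteins of mRNA stability, none was called at P3, 1 was higher and 4 lower at P10, and 1 was higher and 2 lower at P21. Zfp36l1, which speeds the decay of mRNAs with AU-rich elements, was the higher one at both ages (0.98 and 1.75, adjusted p = 0.00389 and 2.65e-05). The lower ones included Ythdf3, Ythdf2 and Elavl1 at P10 and Hnrnpa2b1 and Ythdf1 at P21, with log2 changes of -0.82 for Ythdf3 to -0.44 for Elavl1 among these 5. Zfp36, for tristetraprolin of the same family as Zfp36l1, was higher at P10 than at P3 (1.11, adjusted p = 0.0292).

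These list calls differ in how far they hold. Those of Ccnd2 at P3 and P21, Arid3a, Hmga1 and Cdc25a at P21, Igf1, Igfbp7, Cdkn1c, Dcn, Hes1 and Zfp36l1 at each age named, Asb4 at P10 and P21, Cd81 and Hnrnpa2b1 at P21 held in at least 15 of 17 alternative settings (16 of 16 for Asb4). Those of Arid3a, Ccnd2, Plagl2, Cd81, Igfbp6, Ythdf3, Ythdf2 and Elavl1 at P10, of Irs2, Peg13, Ythdf1 and Trim6 at P21, of Asb4 at P3, and of Zfp36 were lost in 4 to 6 of the 6 fits without a library of the ages compared. Myc and Igfbp6 at P21 were lost without E14.5 replicate 2 or 3 (adjusted p = 0.0666 and 0.0618 for Myc, 0.0525 and 0.0619 for Igfbp6), and Igfbp5 without E14.5 replicate 2 (0.0511). Without E14.5 replicate 2 the calls of Igfbp7 (0.0616) and Hes1 (0.0519) at P3 were lost too. Ptafr was lost at P10 without E14.5 replicate 2 (0.0879) or 3 (0.0783) or P10 replicate 3 (0.0834), and at P21 in 4 of 6 such fits.

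The genes whose levels over the 15 libraries ran most like those of each member were found by Pearson's r of log2 CPM among 10055 or 10056 genes. They are a description: the libraries share ages, depth and sequencing project. For Igf2bp1 they were the replication helicase genes Mcm3 (r = 0.945) and Mcm4 (0.936) and Ccnf (0.928), and for Igf2bp3 they were Bzw2 (0.978), Pimreg (0.978) and Syce2 (0.964). For Lin28b they were Fanci (0.907), Yes1 (0.893) and Dpp3 (0.890), and for Igf2bp2 they were Ccdc86 (0.880), Hspd1 (0.870) and Ckap4 (0.863). For Igf2 they were Mfap2 (0.923) and the type I collagen genes Col1a1 (0.921) and Col1a2 (0.914), both fibroblast markers. For H19 they were Ptn (0.897), Tpm1 (0.881) and Nrep (0.869), for Dlk1 Capn6 (0.928), Hgsnat (0.927) and Ak8 (0.924), and for Peg3 Bcl2l12 (0.911), Lrrc4 (0.890) and Tcf19 (0.879). Spearman's rho of the same pairs ran from 0.618 (Tcf19 with Peg3) to 0.993 (Pimreg with Igf2bp3). With Lin28b, which had at most 2 reads per library from P10 on, it was 0.678 for Fanci, 0.752 for Yes1 and 0.670 for Dpp3.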

How the data were processed

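RNA of sorted CD206+ dural macrophages was measured in 15 libraries, 3 for each of 5 ages, made with a full-length cDNA kit and tagmentation per the labels' protocols. The values are raw counts of reads per gene symbol, as deposited by the authors in 1 table. Tools are listed, without roles, in the submitters' processing notes: STAR 2.7.8a, featureCounts 2.0.2 and bcl2fastq 2.18. The genome build, annotation and counting of reads on overlapping genes are not given in the sources used here. Ages were taken from the labels, and libraries numbered in accession order, which from E14.5 to P21 is also the order of the numbers in their titles.

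All 15 libraries entered 1 edgeR 4.0.16 fit (R 4.3.3) with age as the only term: genes kept by filterByExpr with the ages as groups, TMM scaling, robust quasi-likelihood, two-sided tests and Benjamini-Hochberg adjustment over all genes tested (14683, or 14287 over the 12 libraries of E14.5 to P21). The SE of a log2 change was derived from its test, as the absolute change divided by the square root of the F statistic. Levels are CPM with TMM scaling, marker sums CPM of the total count, and likeness uses log2 CPM with a prior count of 2 among genes whose mean reached 5 CPM at 1 age. Alternatives changed scaling, filter, libraries, threshold (a change beyond a log2 of 1), limma voom 3.58.1 and DESeq2 1.42.0. The fit was tried on counts simulated with its own estimates of spread. Changes were planted only at P3, in genes with a mean above 5 CPM, so changes at lower levels were not tried.

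The members and lists were chosen with earlier results of these data known. Named besides the members are up to 4 called genes of each list by smallest p at P3, P10 and P21 against E14.5, and the 3 genes most like each member (predicted, pseudogene, ribosomal protein and mitochondrial names left out). A gene named by this rule is not reported here. Zfp36, Cd81 after P10, Malsu1, Trim71, Lin28a, Igf2r, Trim6 and Ptafr were named after their values were seen. Of the symbols, 50067 of 53546 (93.5%), all 9 members among them, matched GENCODE M21 (GRCm38), used for positions and 3′ regions. The labels name no litters. Amplified reads without molecular identifiers are not independent molecules, so limits set by counts cover counting error only.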

Additional observations from a re-analysis of the deposited data

How the results depend on the processing

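The falls of Igf2bp1 at P10 and P21 against E14.5 were called in every alternative tried. Number of members called, by alternative, was as follows. Counts within 1.5 times the reported one, such as 3 in place of 2, are left out, and the replicate block is given below. At P3 against E14.5 (1 as reported) it was 0 with total counts as the only scaling, 2 with no filter, 2 with a filter of 5 CPM in 3 libraries, 0 with a threshold on the change, 3 with only the 2 ages in the fit, 2 with P56 left out, 2 with limma voom, 3 with DESeq2, and 0 to 1 leaving out single libraries. At P10 against P3 (0) it was 1 with no filter and 2 with DESeq2. At P21 against P10 (0) it was 1 with P56 left out, 1 with DESeq2 and 0 to 1 leaving out single libraries. At P56 against P21 (1) it was 0 with a threshold on the change, 0 with only the 2 ages, 0 with limma voom, 3 with DESeq2 and 0 to 2 leaving out single libraries. At P10 against E14.5 (2) it was 1 with a threshold, 4 with only the 2 ages, 5 with limma voom and 1 to 3 leaving out single libraries. At P21 against E14.5 (2) it was 1 with no filter, 1 with a threshold, 5 with limma voom and 4 with DESeq2. The test over E14.5 to P21 (3) gave 6 with DESeq2. The causes were not tested, and fewer libraries or a stricter threshold change the test by construction. Leaving P56 out, and trying these alternatives on the list genes, was chosen after seeing the data.

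Libraries with the same number in different ages share only a number. Their deviations correlated at -0.0553 to 0.0618 over 18 pairs, none above 0.1. With a replicate block 0 members were called at P3 against E14.5 and 1 at P21 against P10, and the other counts of member calls stayed within 1.5 times. The block ended the calls of H19 at P3 against E14.5 (adjusted p = 0.0859) and of Lin28b in the test over E14.5 to P21 (0.0695), and added Igf2bp3 at P10 against E14.5 (0.00808) and at P21 against P10 (0.0346). Among the list genes named it ended those of Plagl2 (0.0770), Igfbp6 (0.129) and Elavl1 (0.0696) at P10 against E14.5 and of Zfp36 at P10 against P3 (0.0581).

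Directions that reversed were all of changes not called, in log2: Igf2 at P10 against P3, -0.077 with total counts only and -0.24 to 0.17 leaving out single libraries; Igf2bp1 at P21 against P10, 0.53 with limma voom and -0.77 to 1.205 leaving out single libraries. Leaving out single libraries, Peg3 ran from -1.29 to 0.20 at P21 against P10 and from -0.27 (without P21 replicate 2) to 1.14 at P21 against E14.5, and Igf2bp2 from -1.94 to 0.97 (without P21 replicate 1) at P56 against P21.

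Over all genes, counts of calls ran from 36 to 821 at P3 (302 as reported), 145 to 2200 at P10 (1316) and 354 to 2756 at P21 (1789) against E14.5, from 1 to 335 at P10 against P3 (59), 4 to 748 at P21 against P10 (168) and 0 to 524 at P56 against P21 (40). Scaling by total counts alone moved the median of all genes by -0.31 at P21 and -0.14 at P10 against E14.5, -0.17 at P21 against P10 and -0.13 at P56 against P21. The share of higher genes among the calls was then 33.3% (64.1% as reported) at P21 and 44.8% (64.8%) at P10 against E14.5, 70.9% (84.7%) at P10 against P3, 47.9% (83.9%) at P21 against P10 and 15.3% (37.5%) at P56 against P21. The counts of called genes in the 6 pathway lists at P3, P10 and P21 against E14.5 ran from 0 to 7 over the alternatives. At 0 to 16 counts over an age, as for Igf2bp1 and Lin28b from P10 on, differences between ages were not detectable at this depth.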
